A study of Mus musculus with 14 samples.

Results

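The change from 2 to 4 weeks after bleomycin was measured in MHCII-high alveolar macrophages of the mouse lung, with 3 libraries at each time. These 6 of the 14 RNA-seq libraries were taken by their labels, and a gene was tested if 2 or more of the 6 had 10 or more normalized counts, which left 15929 genes. The mice were male 129S1 animals aged 10 to 12 weeks, and every animal of the 6 libraries had received bleomycin into the trachea at a labelled dose of 3 U/k. Cells of the dissociated lung were sorted as positive for SiglecF and CD11c and high for MHC class II (MHCII). For comparison there were MHCII-low cells, sorted in the same way. They came from mice 2 or 4 weeks after bleomycin (3 libraries per time) and from control mice given water (2 libraries). None of the 14 libraries held MHCII-high cells of water-treated mice. Which of the 2 sorter models in the labels was used for which library is not given, and the labels do not say that libraries of a group came from separate animals, so p-values measure only the spread between these libraries. The deposited values were measured on bulk RNA, so for every gene fewer cells that express it and less RNA per cell cannot be told apart.

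Bleomycin damages DNA, and its instillation into the airway causes inflammation of the lung followed by scarring, which in mice eases with time. Alveolar macrophages clear surfactant and debris from the airspace. After injury, monocytes enter the lung and turn into macrophages that carry SiglecF and CD11c too, and macrophages of injured lung are known for secreting matrix proteins and matrix-degrading enzymes such as osteopontin, fibronectin and metalloproteinases. MHC class II presents peptides to helper T cells.

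From 2 to 4 weeks, genes that fell in MHCII-high cells included those for the matrix proteins osteopontin (Spp1) and fibronectin (Fn1), the matrix-degrading proteases Mmp14, Mmp19 and Ctsk, the complement proteins C3 and C4b, the IgG receptor Fcgr2b, and Sqle and Insig1 of the cholesterol synthesis pathway. Among 29 genes of resident alveolar macrophages, Ear1 and Fabp1 rose, Msr1 and Fabp5 fell and the median log2 fold change was 0.04. C5ar1, the receptor for complement C5a, rose. The MHC class II genes did not pass the test in either direction. Of the 15929 genes, 185 (1.16%) passed an adjusted p of 0.05 (limma, Benjamini-Hochberg) and are called here. There were 55 genes called higher at 4 weeks (0.345%) and 130 called lower (0.816%), and 145 of the 185 differed by at least 2-fold. In 182 of the 185 the values of both times did not overlap. Calls were made on the same libraries, so this separation follows largely from the choice and is no added support. Of all genes tested, 2468 did not overlap (15.5%), 6.27% in the higher and 9.22% in the lower direction. An exact permutation test of 3 against 3 libraries cannot go below 0.1, so single genes are given with the test across all genes. The balance of directions moved with scaling, since scaling to library totals without mitochondrial ribosomal RNA gave 68 higher and 97 lower. All 185 genes kept their sign under each of the 21 alternative settings that gave them a value. This too follows largely from the choice, since values that do not overlap cannot change sign when 1 library is left out. Leaving out 1 library at a time gave 57 to 304 calls. Of the 185, 70, 58 and 51 remained called without 2-week replicate 1, 2 or 3, and 104, 142 and 142 without 4-week replicate 1, 2 or 3. Except for 30 genes, each call was lost without at least 1 library. With only the 6 MHCII-high libraries in the fit, 62 of the 185 remained called.

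**Figure D1:**
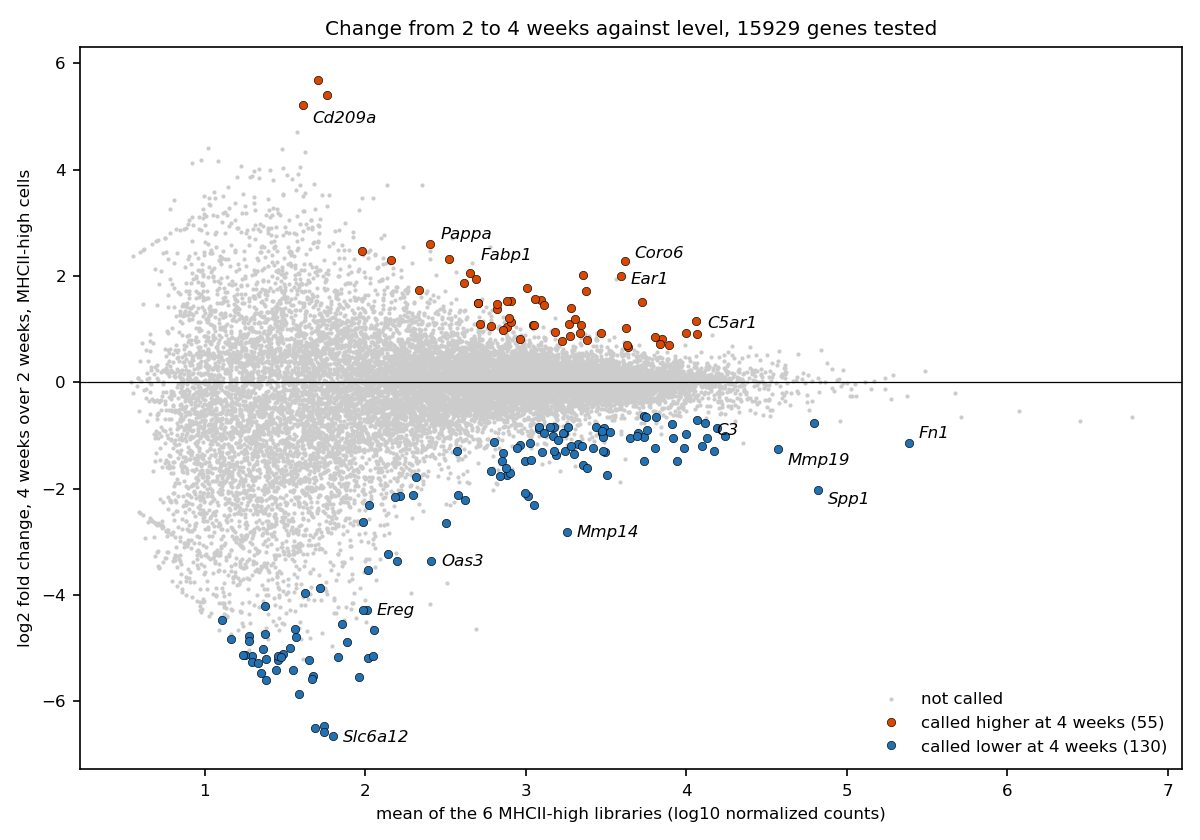
Log2 fold change from 2 to 4 weeks in MHCII-high cells (vertical axis) against the mean of the 6 libraries in log10 normalized counts (horizontal axis), 1 point for each of the 15929 genes. The 55 genes called higher are orange and the 130 called lower are blue; calls among genes of low level lie mostly below 0, down to -6.66 for Slc6a12.

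The depth differed between the times. The 2-week libraries held 47016060 to 79445978 reads and the 4-week libraries 15106420 to 30781828, so 3 reads were worth 1.54 to 2.61 normalized counts at 2 weeks and 3.65 to 6.24 at 4 weeks. A read was found for 18334 to 19723 genes at 2 weeks and 16612 to 16721 at 4 weeks. With the reads of every library, mitochondrial ribosomal RNA left out, thinned to the shallowest, 177 genes were called, 162 of them among the 185. Mitochondrial ribosomal RNA took 22.5% to 26.2% of the reads at 2 weeks and 8.12% to 29.0% at 4 weeks, and 128 of the 185 calls remained with this share as a covariate. Each 4-week library stood apart on a principal component of its own, replicate 3 on the first (27% of the variance), replicate 1 on the second (23.9%) and replicate 2 on the third (21.5%). Spearman correlations were 0.945 to 0.954 within 2 weeks and 0.919 to 0.931 within 4 weeks. Between the times they were 0.9215 to 0.9434, so some pairs of different times were more alike than any pair of 4-week libraries.

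Genes of the sort markers and further genes of resident alveolar macrophages were read at both times. Siglecf, the lectin used in the sort, was read at 3769, 3056 and 3733 normalized counts at 2 weeks and at 4358, 4139 and 3728 at 4 weeks. The times overlapped, and Siglecf did not pass (log2 fold change 0.21 ± 0.15 SE, limma adjusted p 0.557). Itgax, which encodes CD11c, had 33405 to 38615 at 2 weeks and 25185 to 35321 at 4 weeks (-0.31 ± 0.15, limma adjusted p 0.361). In MHCII-low cells Siglecf averaged 6785 and then 8304, beside 3519.5 and then 4075 in MHCII-high cells. Itgax averaged 40445 and then 31686 in MHCII-low cells, beside 36078 and then 29366 in MHCII-high cells. Marco, Pparg, Mrc1 and Chil3, further genes of resident cells, were read in each of the 6 libraries, Marco at 2782 to 4567 normalized counts. Surfactant gene Sftpc, of alveolar type 2 cells, was read at 2746 to 4801 and 1569 to 6258, with overlap, while the summed genes of alveolar epithelium, given with the other cell types, were lower at 4 weeks.

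The genes of MHC class II, by which the cells were sorted, came next. H2-Ab1 was at 17713, 19140 and 25984 normalized counts at 2 weeks and 13418, 10625 and 17569 at 4 weeks. All 4-week values were below all 2-week values, by little, and the change did not pass (-0.60 ± 0.31, limma adjusted p 0.377). H2-Aa, its partner chain, had -0.58 ± 0.33 (limma adjusted p 0.447). It was at 27604 to 38503 at 2 weeks and 16283 to 25311 at 4 weeks. H2-Eb1 was at 7598.5 to 8333.5 and then at 3012 to 6090. H2-Ab1, H2-Aa and H2-Eb1 were the 3 of the 11 MHC class II genes tested that did not overlap, all lower at 4 weeks. Of all genes tested, 9.22% did not overlap in that direction. Cd74, the invariant chain that guides MHC class II to the endosome, had 94552, 99133 and 147040.2 at 2 weeks and 103125, 60414 and 129257 at 4 weeks, with overlap. Of the 11 genes of the list, limma called 0, 1 had an unadjusted p under 0.05 and the median log2 fold change was -0.21, beside -0.05 for all genes tested. DESeq2 and edgeR called 0 of the 11 as well. Ciita, the master regulator of the class, had -0.21 ± 0.33, and H2-DMa and H2-DMb2, of the peptide-loading complex, had 0.31 ± 0.20 and 0.44 ± 0.28. H2-Oa and H2-Ob had -2.25 ± 0.94 and 0.58 ± 1.20, H2-Eb1 -0.77 ± 0.68, and H2-DMb1 and H2-Eb2 0.07 ± 0.20 and -0.16 ± 1.06. In MHCII-low cells H2-Ab1 averaged 865 and then 496, and 109 in the controls.

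Genes for matrix proteins and matrix-degrading enzymes of injury macrophages were among the decreases. Spp1 (ENSMUSG00000029304, chromosome 5, 104435118 to 104441050, forward strand, GRCm38) encodes osteopontin, a secreted matrix glycoprotein. It was read at 92775, 103351 and 123219.6 normalized counts at 2 weeks and at 18779, 24989 and 36775 at 4 weeks. The lowest 2-week value was above the highest 4-week value, and Spp1 fell by 2.03 ± 0.22 on the log2 scale (limma adjusted p 0.000169). Mmp14 (chromosome 14, 54431612 to 54441265, forward strand), a membrane-bound metalloproteinase that cleaves collagen, was at 3229.7, 2738 and 3484 and then at 335, 381 and 699. Its decrease was -2.81 ± 0.40 (limma adjusted p 0.0019), and the call held without any 1 of the 6 libraries, as that of Spp1 did. Fn1, which encodes fibronectin, went from 290029, 320203 and 393129 to 111804, 140178 and 213533 (-1.15 ± 0.21, limma adjusted p 0.0104). In each of these genes all 3 libraries of 4 weeks lay below all 3 of 2 weeks.

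Of the 30 tested genes on the list of Trem2-type and profibrotic macrophages, 10 were called lower and 0 higher. Among all genes tested, 0.816% were called lower. All 10 were non-overlapping, which follows largely from their being called. Of the 30, 21 were so in the lower direction, beside 9.22% of all genes. The median of the list was -0.82. The other called members were Mmp19, a metalloproteinase (-1.26 ± 0.21), Ctsk, the collagen-cleaving cathepsin K (-0.98 ± 0.17), Timp2, an inhibitor of metalloproteinases (-0.77 ± 0.18), Tgfbi, a matrix protein induced by TGF-beta (-0.87 ± 0.19), Gpnmb, a membrane glycoprotein (-0.77 ± 0.17), Cd63, a tetraspanin of late endosomes (-1.02 ± 0.21), and Fabp5, a fatty acid-binding protein (-1.47 ± 0.31). Their limma adjusted p ran from 0.00525 for Mmp19 to 0.0416 for Timp2. Ctsk was tight within each time, at 14090, 11683 and 13728 and then at 6735, 6779 and 6486. Trem2 itself had 0.27, and the growth factor Igf1 had -0.61, and neither was called. Leaving out 1 library at a time gave 5 to 10 called members, 5 each without 4-week replicate 1 or any 1 of the 2-week libraries.

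Complement genes were called in both directions. Of 15 tested, C3, C4b and C3ar1 fell and C5ar1 and C5ar2 rose, where 1.16% of all genes were called. The count of calls was 3 without 2-week replicate 1 or 3 or 4-week replicate 1. C3, the central complement protein, was at 18633, 14479 and 21226 normalized counts at 2 weeks and at 9859, 7575 and 8668 at 4 weeks. It fell by 1.05 ± 0.16 on the log2 scale (limma adjusted p 0.00417) with no overlap. C4b, a component upstream of C3 with a close copy in the genome (C4a) that may share reads, fell by 2.30 ± 0.40 (limma adjusted p 0.0072). C3ar1, the receptor for the C3a fragment, went from 7333, 5892 and 10970.3 to 1958, 3041 and 3703 (-1.48 ± 0.30, limma adjusted p 0.021). C5ar1, the receptor for C5a, moved the other way, from 8776, 6392 and 9506 to 14606, 15558 and 15617, a rise of 0.91 ± 0.15 (limma adjusted p 0.00525). All 3 of its 4-week libraries were above all 3 of 2 weeks. C5ar2, its decoy-like relative, rose by 1.53 ± 0.32 (limma adjusted p 0.0219). The 3 genes of C1q had -1.67 (C1qa), -1.88 (C1qb) and -0.96 (C1qc) and were not called. The list's median was -1.04, and 9 members did not overlap in the lower direction, beside 9.22% of all genes.

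Among receptors for opsonised and dying cells, 5 of 27 tested genes fell and 0 rose, with a median of -0.53. Calls in the lower direction made up 0.816% of all genes. The count was 3 without 2-week replicate 1 or 2 and 1 without 2-week replicate 3. Fcgr2b, the inhibitory IgG receptor, was at 11936, 11629 and 15295 and then at 3809, 4810.4 and 5379.7 (-1.48 ± 0.21, limma adjusted p 0.0019). Its times were separated by a wide gap. Msr1, a scavenger receptor, went from 14651, 16465 and 21266 to 7047, 8482 and 7235 (-1.19 ± 0.22, limma adjusted p 0.0118). Mfge8, which bridges dying cells to integrins, was lower by 2.64 ± 0.56, Itgb5, a subunit of such an integrin, by 0.85 ± 0.18, and Clec4e, a C-type lectin, by 1.29 ± 0.25 on the log2 scale (limma adjusted p 0.0251, 0.0265 and 0.0153). Of 28 lysosomal genes, Ctsk and Ctsl were called lower, Ctsl with -1.23 ± 0.26, and the median was -0.25. Of the 28, 24 had a negative log2 fold change. Without overlap, 15 were lower and 0 higher, beside 9.22% of all genes lower. The summed list was at 1288674 to 1514999 normalized counts at 2 weeks and 956988 to 1049075 at 4 weeks.

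**Figure D2:**
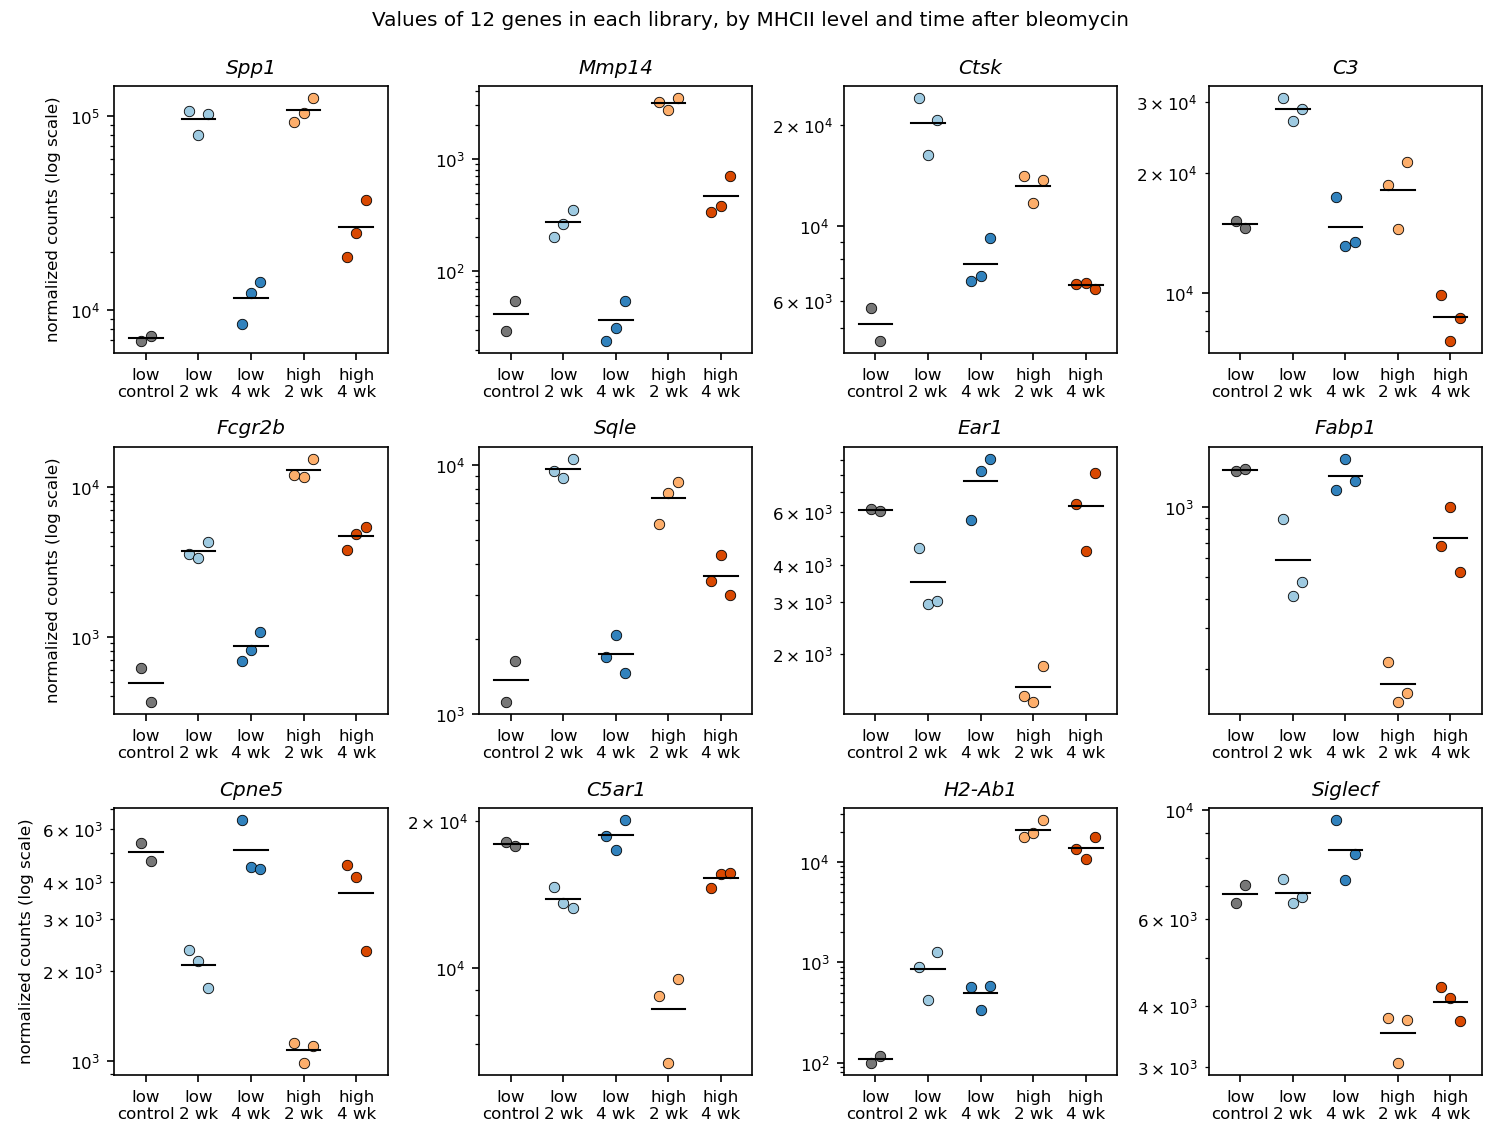
Normalized counts (log scale) of 12 genes in each of the 14 libraries, with the group mean as a bar, for MHCII-low cells of controls and at 2 and 4 weeks and for MHCII-high cells at 2 and 4 weeks. In MHCII-high cells the matrix, complement and Fc receptor genes, for example Spp1 from 92775 to 123219.6 down to 18779 to 36775, lie lower at 4 weeks, and Ear1, Fabp1, Cpne5 and C5ar1 lie higher.

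Genes of cholesterol synthesis and uptake were mostly lower at 4 weeks, and 4 passed the test. Sterols are made by a chain of enzymes that starts from acetyl-CoA, and when cells hold little sterol the transcription factor SREBP2 raises most of these genes, with NF-Y, which binds CCAAT sequences, as a known partner. Of 21 genes for synthesis and uptake, 4 were called lower and 0 higher, beside 0.816% and 0.345% of all genes tested. Of the 21, 15 did not overlap in the lower direction, beside 9.22% of all genes. A negative log2 fold change was found for 19, and the list's median was -0.79, beside -0.05 for all genes. Sqle, squalene epoxidase (chromosome 15, 59315077 to 59331192, forward strand), was at 5788, 7666 and 8539 at 2 weeks and at 3397, 4348 and 3000.2 at 4 weeks. Its values did not overlap, and it fell by 1.03 ± 0.20 (log2; limma adjusted p 0.0125), a call that was lost without 2-week replicate 2 or 3. Insig1, which holds the SREBP pathway in check and is itself a target, had -0.92 ± 0.17 (limma adjusted p 0.0118), Cyp51 -0.95 ± 0.23 (limma adjusted p 0.0468) and Stard4, a sterol carrier, -0.78 ± 0.19 (limma adjusted p 0.0495). The number of called members was 0 with limma without 2-week replicate 2 or 3, each with 14 members at an unadjusted p under 0.05. It was 2 without 2-week replicate 1 or 4-week replicate 1, 7 without 4-week replicate 2, 2 with edgeR and 8 with DESeq2.

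The promoters of Insig1 and Cyp51 are printed since they were the called members with an entry in the RefSeq table used (GRCm38.p6), which gave a window for 16 of the 21 genes. Each window runs from 250 bases before the start of transcription to 50 after it, 5′ to 3′ on the gene's strand, with CCAAT or its reverse complement ATTGG in capitals. Insig1 lies on the forward strand at chr5:28071162-28071461 and Cyp51 on the reverse strand at chr5:4104648-4104947.
Insig1: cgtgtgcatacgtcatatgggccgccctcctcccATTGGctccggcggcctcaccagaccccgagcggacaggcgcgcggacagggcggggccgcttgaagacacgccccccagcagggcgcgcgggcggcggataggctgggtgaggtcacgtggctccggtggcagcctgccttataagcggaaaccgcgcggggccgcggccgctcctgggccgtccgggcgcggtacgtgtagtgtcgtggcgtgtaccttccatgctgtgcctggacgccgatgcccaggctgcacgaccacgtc
Cyp51: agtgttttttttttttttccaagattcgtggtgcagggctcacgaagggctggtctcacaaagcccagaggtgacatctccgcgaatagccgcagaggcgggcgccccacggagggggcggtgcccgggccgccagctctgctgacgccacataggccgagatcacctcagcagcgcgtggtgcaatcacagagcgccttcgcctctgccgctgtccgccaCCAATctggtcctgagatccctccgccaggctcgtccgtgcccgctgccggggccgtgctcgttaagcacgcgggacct
CCAAT was found on either strand in 16 of the 16 cholesterol genes with a window, against 41.1% of all 27025 genes in that table and 42.0% of the 10764 tested here. TCACNCCAC, a form of the sterol regulatory element, was found in 1 of the 16 (Hmgcs1) and in 1.4% of all genes, and CACGTG in 4 of the 16, in 8.1% of all and in 11.3% of those tested. A gene with several windows was counted if any held the motif and each motif was searched separately on both strands. These matches describe letters in the windows, and the motifs were chosen after several had been looked at.

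**Figure D3:**
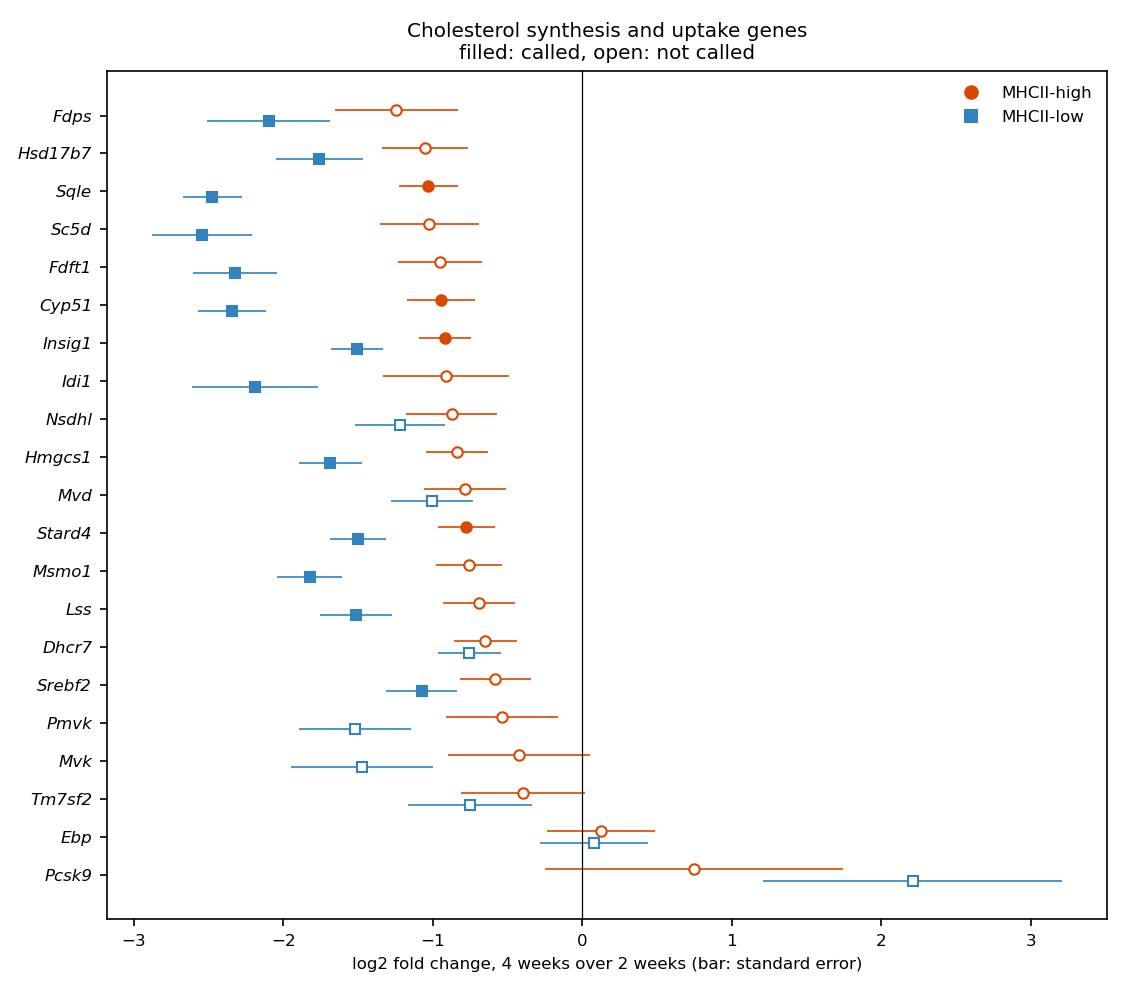
Log2 fold change from 2 to 4 weeks with its standard error for 21 cholesterol genes in MHCII-high (circles) and MHCII-low cells (squares), filled where called. In MHCII-high cells 19 of the 21 lie below 0 and 4 are called; in MHCII-low cells 13 are called.

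The same 21 genes had a median of -1.51 in MHCII-low cells, with 13 called lower. The difference, MHCII-high minus MHCII-low log2 fold change, was above 0 for 20 of the 21, beside 46.1% of all genes, with a median of 0.82. By its test, the interaction of MHCII level with time, it was called for 0 of them with limma (smallest adjusted p 0.121), although 10 had an unadjusted p under 0.05. DESeq2 called Sqle, Cyp51 and Fdft1 of these genes. Sqle averaged 9590.4 and then 1737 in MHCII-low cells and 1370.1 in controls, beside 3000.2 to 4348 in MHCII-high cells at 4 weeks.

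Genes of resident alveolar macrophages showed no common direction. Of 29 tested, 2 rose, 2 fell and the median was 0.04. An unadjusted limma p under 0.05 was found for 13, beside 14.5% of all genes. Without overlap, 8 were higher and 6 lower, beside 6.27% and 9.22% of all genes, and DESeq2 called 8. Ear1 (chromosome 14, 43818765 to 43875517, reverse strand), a ribonuclease of a family with near-identical copies between which reads may be shared, was read at 1453, 1385 and 1822 at 2 weeks and at 6396, 4459 and 8117 at 4 weeks. Every 4-week library was above every 2-week library, and Ear1 rose by 1.99 ± 0.22 (log2; limma adjusted p 0.00018). Fabp1 (chromosome 6, 71199827 to 71205023, forward strand), a fatty acid-binding protein, went from 216, 145 and 158 to 676, 995 and 526, a rise of 2.05 ± 0.30 (limma adjusted p 0.00214). Both calls held without any 1 library. The members that fell were Msr1 and Fabp5, given above. Pparg, the nuclear receptor that directs alveolar macrophage development, had 0.48 (limma adjusted p 0.097), and Car4, a carbonic anhydrase, -0.74 (limma adjusted p 0.0656).

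Other increases past the test were found mostly in genes outside the lists. Among the 15 largest, Coro6, an actin-binding coronin, went from 1746, 1059 and 1356 to 9711, 6321 and 4785 (2.29 ± 0.33, limma adjusted p 0.0019). Gabbr1, a subunit of the GABA-B receptor, went from 905, 1176 and 569 to 5419.5, 3226 and 2306 (2.02 ± 0.27, limma adjusted p 0.00112). Cpne5, a copine, went from 1143, 982 and 1123 to 4533, 4148 and 2345 (1.71 ± 0.22, limma adjusted p 0.00105). The times were separate in each of these genes, as the rule for naming them required. Tlr5, the receptor for flagellin, had 1.94 ± 0.36 (limma adjusted p 0.0104), Pappa, a protease that frees insulin-like growth factors, 2.60 ± 0.50 and Svep1, a cell adhesion protein, 2.31 ± 0.42. Enpp6, Dtna, Sec14l2, Wfdc10 and Zc3h12d followed with 2.46, 2.32, 1.86, 1.74 and 1.57. The largest estimates, 5.69 for the non-coding RNA B230344G16Rik and 5.40 for Gm12503, rest on few reads: the former was at 0 in all 2-week libraries and at 14.6, 32.9 and 258 at 4 weeks, at least 46.2-fold higher by the mean floor of 3 reads at 2 weeks and at least 10.8-fold without 4-week replicate 3. Cd209a, a lectin of monocyte-derived dendritic cells and a member of the dendritic cell and alternative activation lists, was at 1.5, 0 and 0 and then at 95.7, 139.6 and 8.5 (5.22 ± 1.27, limma adjusted p 0.0495), and the call remained without 4-week replicate 3 and was lost without any 1 of the other 5 libraries.

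Most of the largest decreases were likewise in genes of low level. Of the 130 genes called lower, 20 had 0 reads in all 3 libraries at 4 weeks and 40 in at least 1. Slc6a12, a betaine and GABA transporter, was at 215, 126 and 36.5 at 2 weeks and at 0 in each 4-week library, where 3 reads were worth 4.87 normalized counts on average, so it was at least 25.8-fold lower, and at least 16.7-fold without 2-week replicate 1. Svip and Eya2, the latter a phosphatase and transcriptional co-activator, were at least 22.6-fold and 22.8-fold lower by the same floor. Svip was at 65.3, 199.9 and 65.2 at 2 weeks, and its bound without replicate 2 was 13.4-fold. Ereg, which encodes the EGF receptor ligand epiregulin, had reads at both times, 269, 88.5 and 231 and then 6.2, 14.1 and 6.1 (-4.27 ± 0.69, limma adjusted p 0.00525). It was the called member among 19 growth factor genes of tissue repair. Rph3a, Aldh1l1, Traf4 and Vnn3 had -4.29, -3.36, -3.54 and -5.55, and Sgpp2, Tm4sf19, Spef2, Mboat1, Gm4430 and 4933431E20Rik lay between -5.17 and -3.87. The floors of the 4-week libraries are higher than those of the 2-week libraries. The thinned fit above left out mitochondrial ribosomal RNA and equalised the remaining reads.

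Genes of the inflammatory response showed scattered calls. Il1b, the cytokine interleukin 1 beta, was at 2402, 2419.9 and 1820.1 and then at 662, 800.2 and 1147 (-1.37 ± 0.30, limma adjusted p 0.0289). It was the only called gene among 18 cytokine and receptor genes, and 5 of the 6 fits without 1 library lost its call. Cxcl16, a membrane-bound chemokine, was the only called gene among 20 chemokine ligands (-1.16 ± 0.28, limma adjusted p 0.0461). Its call was likewise lost in 5 of the 6 fits without 1 library. The median of those 20 ligands was -1.01. Ccl2 had -1.12, and its values were 269, 309 and 193 and then 125, 121 and 101. Of 26 genes induced by type I interferon, 24 had a negative log2 fold change and the median was -0.97, but 1 was called: Oas3, an antiviral synthetase, at 594, 222 and 596 and then at 25, 36.1 and 75.5 (-3.36 ± 0.58, limma adjusted p 0.00709). Of the 26, 9 did not overlap in the lower direction, beside 9.22% of all genes, and the median of all genes was -0.05. Of 17 genes induced by interferon gamma, limma, edgeR and DESeq2 each called 0, 5 had an unadjusted p under 0.05 and the median was -0.47.

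Genes of monocyte-derived or interstitial macrophages had a median of -0.72 over 26 tested, with Ccr2 and C3ar1 called lower and C5ar1 called higher. Ccr2, the receptor by which monocytes enter tissue, went from 6046, 5789 and 8004 to 3632, 3306 and 2852 (-1.01 ± 0.18, limma adjusted p 0.0101). The times did not overlap for Ccr2, and 12 of the 26 did not overlap in the lower direction, beside 9.22% of all genes. In MHCII-low cells Ccr2 averaged 897 and then 622 and C3ar1 460 and then 164, below MHCII-high cells. C5ar1 averaged 13835 and then 18710 there, above MHCII-high cells. Cx3cr1, a further monocyte receptor, had -1.25 and Adgre1, which encodes F4/80, -0.08; limma called neither, and DESeq2 called Cx3cr1. The fit on the 6 MHCII-high libraries alone called 7 members, and DESeq2 called 6. The call count was 1 without 2-week replicate 3.

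**Figure D4:**
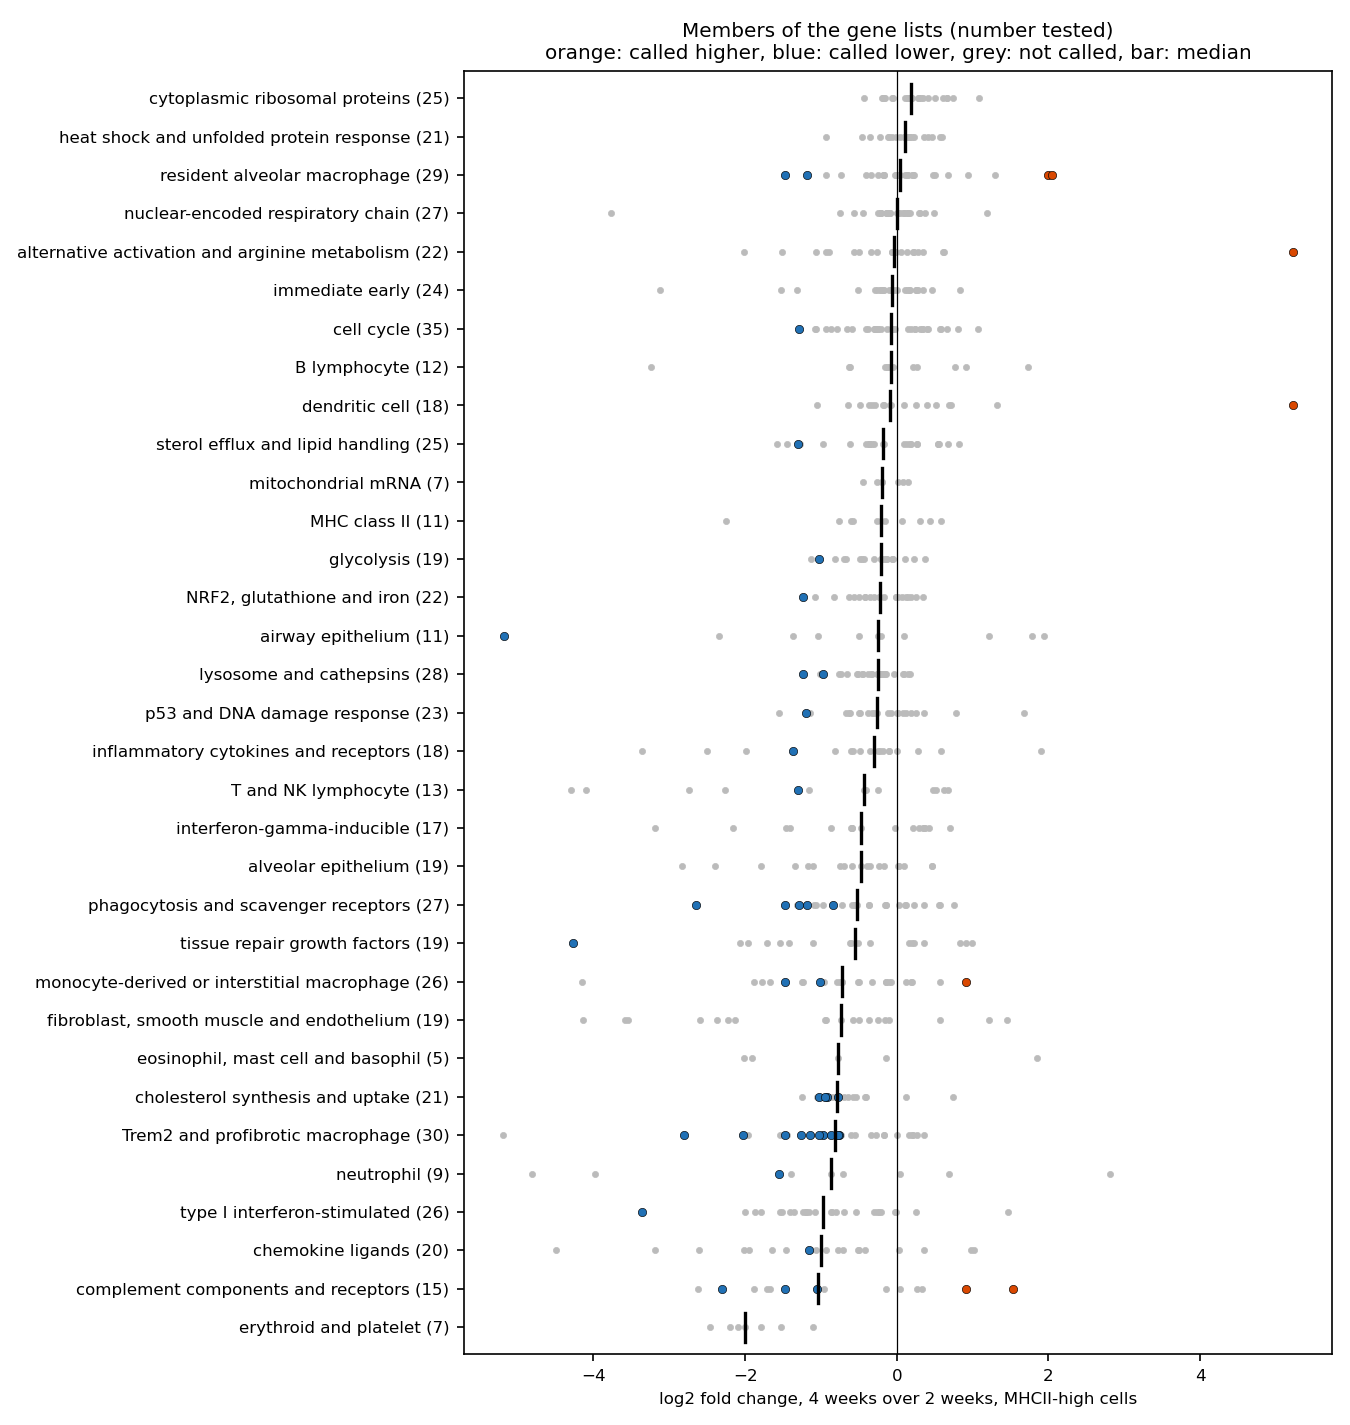
Log2 fold change from 2 to 4 weeks in MHCII-high cells for each member of the gene lists with at least 5 tested genes (the number tested in brackets), with the median as a bar, orange for members called higher and blue for members called lower. Called were 10 of 30 genes in the profibrotic macrophage list, 5 of 27 in phagocytosis and 5 of 15 in complement. The cholesterol list held 4 of 21 and the resident alveolar macrophage list 4 of 29, beside 1.16% of all genes. Some called genes are in more than 1 list, and the lists were chosen with earlier results of these data known. Ribosomal protein and respiratory chain genes centre on 0.19 and 0.00.

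In metabolism and stress pathways few genes were called. Slc2a1, the glucose transporter GLUT1, was the called gene of 19 of glycolysis (-1.02 ± 0.23), Slc7a11, the cystine importer, that of 22 of the NRF2 and iron list (-1.23 ± 0.30) and Scd2, a fatty acid desaturase, that of 25 of lipid handling (-1.30 ± 0.28). Trp53inp1, a target of p53, went from 3385, 3436 and 2597 to 1193, 1588 and 1328 (-1.19 ± 0.22, limma adjusted p 0.0104) and was the called gene of 23 of the DNA damage response. Mcm5, a subunit of the replicative helicase, was the called gene of 35 of the cell cycle list (-1.29 ± 0.30, limma adjusted p 0.037). The median of that list was -0.08. Of the 21 alternative settings, 9 lost the call of Slc2a1, 12 that of Slc7a11 and 5 that of Scd2. The call of Trp53inp1 was lost in 2 and that of Mcm5 in 8. The lists of alternative activation (22 tested, Cd209a called), immediate early genes (24), heat shock (21), mitochondrial mRNA (7), the respiratory chain (27) and ribosomal proteins (25) held no further calls with limma, with 4, 4, 3, 0, 2 and 2 genes at an unadjusted p under 0.05. For the last 5 of these lists edgeR called 0, and DESeq2 called Myc and Xbp1.

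Markers of other cell types were followed beside these results. Summed over the list, alveolar epithelium genes ranged from 22528 to 29822 normalized counts at 2 weeks and from 17563 to 21780.3 at 4 weeks, with no overlap and 0 of 19 called. The median of the 19 was -0.48, beside -0.05 for all genes, and 14 were negative. In the lower direction 5 did not overlap, beside 9.22% of all genes, and Sftpc, Sftpb and Abca3 were read in every library. Lyz1 was at 3421, 3918 and 3203 and then at 1039, 1422 and 2922. Sfta2, an epithelial gene outside the list that is named after its values were seen, was at 10.8, 76.2 and 26.1 and then at 0 in each library, and its call (limma adjusted p 0.0495) was lost whichever of the 6 libraries was left out. Neutrophil genes summed to 10603 to 14648 and 7016 to 10092, also with no overlap and lower at 4 weeks, and 1 of 9 was called by limma, Cxcr2 (-1.55 ± 0.37, limma adjusted p 0.0444), a call lost under 12 of 21 settings. In that list edgeR called 0 and DESeq2 called Mmp8 and Retnlg. S100a8 was at 328 to 396 and then 104 to 284, and Retnlg was near 0 in 4 of the 6 libraries. Dendritic cell genes summed to 14118 to 16610.1 and 11372 to 14840.4 (1 of 18 called), B cell genes to 11831 to 13438 and 10471 to 13231 (0 of 12), and T and NK cell genes to 8018 to 10298 and 9268 to 9475 (1 of 13 called, Il7r, -1.30 ± 0.30). Cd3e was at 222, 36 and 39.1 and then at 2.1, 20.4 and 0. Fibroblast and endothelial genes (0 of 19) summed to 8592 to 15142 and 8943 to 10211, airway genes (1 of 11, Dnah5) to 1701 to 12242 and 6017 to 11482, erythroid genes (0 of 7) to 295 to 580.4 and 36 to 352, and eosinophil and mast cell genes (0 of 5) to 192 to 503 and 104 to 254. For the lists with 0 calls by limma, edgeR called 0 as well and DESeq2 called Acta2, Col1a2 and Pdgfrb, all of the fibroblast list. Unadjusted p was under 0.05 for 8 of 19 alveolar epithelium, 6 of 13 T and NK cell, 4 of 9 neutrophil, 3 of 11 airway, 2 of 18 dendritic cell, 0 of 12 B cell, 5 of 19 fibroblast and endothelial, 3 of 7 erythroid and 1 of 5 eosinophil and mast cell genes, beside 14.5% of all genes tested. The part of these cells in the results was not tested.

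Whether the change was particular to MHCII-high cells was asked with the interaction, and limma called 0 of 15929 genes. There 875 genes had an unadjusted p under 0.05 and the smallest adjusted p was 0.113, edgeR called 0 and DESeq2 called 52. In MHCII-low cells the same contrast called 150 genes (0.942%), 19 higher (0.119%) and 131 lower (0.822%). The 2 contrasts share no library, but MHCII-high and MHCII-low libraries of a time bear the same numbers. Whether such libraries came from the same animals is not given, and the main fit did not pair them. At 4 weeks, deviations from the group mean correlated at 0.057, 0.072 and 0.06 for the same number and -0.046 to -0.012 for different numbers. At 2 weeks they correlated at 0.139, 0.128 and 0.002, against -0.212 to 0.133. Of the 130 genes called lower in MHCII-high cells, 105 (80.8%) were lower at 4 weeks in MHCII-low cells too, where 47% of all tested genes were lower. Of the 55 called higher, 53 (96.4%) were higher there, against 52.4% of all genes. Called in both with the same sign were 49 lower and 7 higher genes, and 0 were called with opposite signs. Spp1 averaged 95788 at 2 weeks, 11632 at 4 weeks and 7176 without bleomycin in the MHCII-low cells, where it fell by 3.06 on the log2 scale, which was also called. Mmp14 was far lower in MHCII-low cells, 272 and then 36.6, and fell by 2.91 there.

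**Figure D5:**
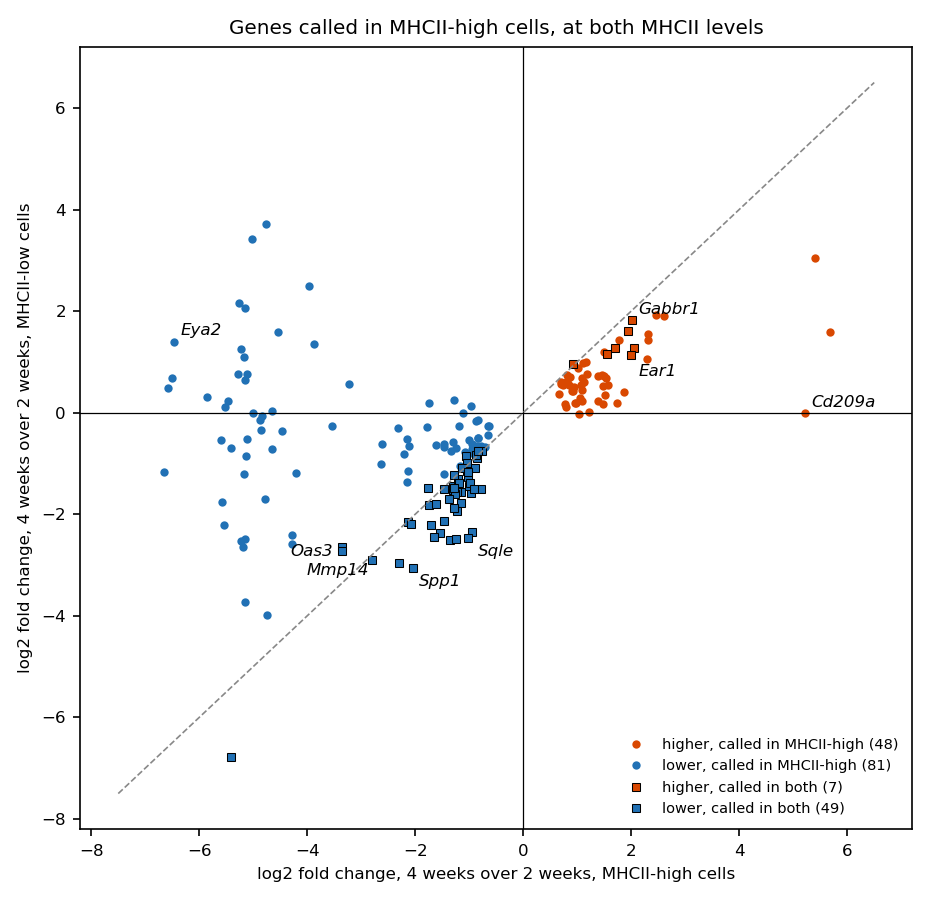
Log2 fold change from 2 to 4 weeks of the 185 genes called in MHCII-high cells, in those cells (horizontal axis) and in MHCII-low cells (vertical axis), squares where called in both. The dashed line marks equal change; 53 of the 55 genes called higher lie above 0 in MHCII-low cells, and 105 of the 130 called lower lie below 0.

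Water-treated controls exist here for MHCII-low cells, and they show the called genes without bleomycin in that population. Of the 130 genes called lower from 2 to 4 weeks in MHCII-high cells, 98 (75.4%) were higher in MHCII-low cells at 2 weeks than in the controls, where 45.3% of all genes were. The median difference was 0.99 on the log2 scale, beside -0.06 for all genes. Of the 55 called higher, 47 (85.5%) were lower in MHCII-low cells at 2 weeks than in controls, where 54.3% of all genes were, with a median of -0.56. Ear1 averaged 6108 in controls, and MHCII-low cells had 3507 at 2 weeks and 7647 at 4 weeks. Its MHCII-high mean of 6324 at 4 weeks lay near the control value, against 1553 at 2 weeks. Fn1 averaged 30206 in controls, 213423 and 62019 in MHCII-low cells, and its lowest MHCII-high value at 4 weeks was 111804.

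The calls that held without any 1 of the 6 libraries were 30 of the 185, 12 higher and 18 lower. Those higher were Ear1, Fabp1, Coro6, Gabbr1, Cpne5, C5ar1, Svep1, Sec14l2, Gpd1, Tbc1d30, St6galnac2 and Patj. Gpd1, a glycerol phosphate dehydrogenase, went from 782, 778 and 400.5 to 1975, 2153 and 1425, and Patj, a scaffold of cell polarity, from 1129, 1312 and 1118 to 2348, 2839.8 and 2406. Those lower included Spp1, Mmp14, Mmp19, Ctsk, C3, Fcgr2b, Ereg, Itga5, Lyst, Hal, Myo10, Anpep, Lcn2, Eya2, Svip, Vnn3 and Erich3. Itga5, the fibronectin receptor subunit, went from 5559, 6536 and 5957 to 3351, 2642 and 2735, and Hal, histidine ammonia-lyase, from 4379, 4529 and 5880.0 to 1457, 1555 and 1349. Anpep, an aminopeptidase, went from 18698, 19107 and 25311 to 7055, 7782 and 11376. Each of these genes was named after its values were seen, by the rule that no single library carried its call. With only the 6 MHCII-high libraries in the fit, Svep1, Sec14l2, Ereg, Lcn2, Eya2, Vnn3 and Erich3 were not called.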

How the data were processed

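The deposited table gives a signal per gene and library, normalized counts per the file headers. The submitters' processing notes name STAR, DESeq2 and the build mm10, with no versions or roles. GC percent and the other annotation columns (exon length, coordinates) were used as deposited by the authors. Of 42462 gene identifiers shared with a GENCODE annotation of GRCm38, 90.1% had the same span. The labels' protocols describe no molecular identifiers, and copies made by amplification count as reads.

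In each library 99.47% to 100% of the values up to 200 reads lay within 0.05 normalized counts of a whole multiple of the worth of 1 read, and rounding to these multiples gave reads for the count tests. Reads of 1 control library were rounded from a step close to the rounding of the file. Replicate pairs had a mean chi-square per gene of 65.3 to 211.9, so none was treated as a repeat of the same library; separate libraries exceed counting noise in any case.

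The main test was limma (3.58.1) on log2(value + 1) with a trended prior variance, over all 14 libraries with 1 coefficient per group, on genes at 10 or more normalized counts in 2 or more of the 6 libraries, with Benjamini-Hochberg adjustment and a threshold of 0.05. Fold changes of low genes on this scale depend on the added 1, which in large part sets their size for genes at 0 in all libraries of a time. Alternatives used edgeR (4.0.16) and DESeq2 (1.42.0) on recovered reads, voom, other scalings, pseudocounts and filters, thinned reads, a GC correction, the 6 libraries alone, a replicate block and each library left out. The scripts were tested on simulated data. Values after ± are standard errors.

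The genes named were up to 15 largest increases and 15 largest decreases with a mean of at least 50 and no overlap, up to 4 called members of each list, and all MHC class II and sort marker genes. The 34 lists held 650 genes, of which 606 were tested. A few genes are not reported here by name or within lists, but stayed in the fit and in counts over all genes. The comparison and the lists were chosen with earlier results of these data known.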

Additional observations from a re-analysis of the deposited data

How the results depend on the processing

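The 185 calls became 118 with edgeR and TMM, 111 with voom and 596 with DESeq2 (239 higher, 357 lower). In the fit on the 6 MHCII-high libraries alone there were 77, of which 62 were among the 185. Leaving out 1 library gave 57 to 304 calls, 78, 68 and 57 of them without 2-week replicate 1, 2 or 3, 304 without 4-week replicate 2, and 30 calls were made without any 1 library. The other settings kept the count within 1.5 times, from 126 without a filter to 267 with the GC trend removed. The share of higher calls was 29.7%, against 41.2% with library totals without mitochondrial ribosomal RNA and 40.1% with DESeq2. The interaction's 0 calls became 52 with DESeq2 and 0 to 3 with 1 library left out (Eya2, Spef2, Fdft1 and Ptpn13). With a replicate block the calls were 191 (interaction 0), 168 of them among the 185; the same numbers at both times did not pair the libraries (correlations of deviations 0.10, -0.11 and 0.03), so this fit shares only a number.

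Signs turned only for uncalled genes, which follows largely from the choice of the called ones. Cd74 became 0.053 without 4-week replicate 2 (-0.496 without replicate 3), H2-Ob -0.048 with the ribosomal share as a covariate, and H2-DMb1 -0.098 without 2-week replicate 1 and -0.143 without 4-week replicate 3 (0.205 without 2-week replicate 3). H2-Eb2 became 0.206 with edgeR and TMM, 0.229 with edgeR and DESeq2's factors, 0.23 with DESeq2, and 0.024 and 0.37 without 4-week replicate 1 or 2 (-0.875 without replicate 3). The cause of these changes was not tested. The 60 named genes that were called had 1259 values under the alternatives, of which 978 were still called and 281 were not, and 103 counts of list members moved by over 1.5 times. Depth limits genes near 10 normalized counts, which rest on about 5 reads in the shallowest library.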

Other observations

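Among genes outside the lists that were called, a few of known function have values that the text above has not given. Kcnj15, an inward-rectifier potassium channel, was at 3301, 1846 and 3169 normalized counts at 2 weeks and at 9863, 8246 and 5426 at 4 weeks, all above the 2-week values (limma adjusted p 0.0088). Igf2r, the receptor that carries lysosomal enzymes and clears insulin-like growth factor 2, was at 1716, 1614 and 1688 and then at 358, 281 and 534 (-2.14, limma adjusted p 0.0102). Lyst, a regulator of lysosome-related vesicles, went from 11129, 12333 and 9777 to 4583, 6116 and 5393, and Myo10, a motor of filopodia, from 1332, 1066 and 815 to 266, 386 and 282. Lcn2, the siderophore-binding lipocalin that neutrophils and macrophages secrete, was at 101, 77.8 and 82.5 and then at 2.1, 3.1 and 0. Each was named after its values were seen.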
